A study of Homo sapiens with 2 samples.

Results

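The DNAJ proteins and the chaperonin subunits are cytosolic and organelle helpers of protein folding, and 55 of 18377 measured genes belonged to them. They were taken by symbol: 5 genes of the DNAJA type, 13 of the DNAJB type, 27 of the DNAJC type and 10 named TCP1 or CCT. The values come from K562, an established human leukaemia line that carries the BCR-ABL1 kinase fusion. All cells received imatinib, which blocks that kinase, at 2 µM for 6 h. Cells of the first array were kept with erythropoietin (EPO), the hormone of red cell formation. The label of the other array does not mention EPO, and the growth protocol is read to mean that its cells had none. Both groups therefore carry the fusion and the inhibitor, both are the same cell line, and cells without imatinib were not analysed here.

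DNAJ proteins deliver unfolded clients to HSP70 and, through their J domain, make HSP70 split ATP and close on the client. Type A proteins and some of type B, such as DNAJB1, share a client-binding part after the J domain. Type C proteins have little in common beyond that domain and often serve a single place or task. The cytosolic chaperonin, also called TRiC or CCT, is a double ring in which each position is held by its own subunit, and actin and tubulin fold inside it. Prefoldin hands clients to it, and nucleotide exchange factors reset HSP70.

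Each value is a deposited log value, read as log2, that states how far a probe stood from a per-probe baseline of the authors. It carries no level of expression, so values of different genes were not compared as levels, and the presence of K562 markers could not be checked. A difference is the value with EPO minus the value without it, on that log2 scale. There was 1 array per group, so a difference has neither an error between replicates nor a p-value, no test was made, and the precision is limited by this number of arrays. A gene was counted as higher or lower when it differed by at least 2-fold, which is 1 on the log2 scale.

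The members leaned to the array with EPO. Of the 55, 8 passed 2-fold upwards with EPO, against 6.19% of all genes, and 0 passed it downwards, against 0.898% of all genes. The 8 make up 14.5% of the members. Genes with symbols of other cellular machinery (255 genes of nuclear pores, RNA polymerase II, splicing, respiration, mitochondrial ribosomes and proteasomes) had a like share, 15.3%. Differences above 0 were found in 38 members (69.1%), against 45.4% of all genes and 78.4% of the machinery genes. The median difference was 0.44 over the members, -0.047 over all genes, 0.44 over the machinery genes and -0.33 over 482 genes of olfactory, taste and vomeronasal receptor, keratin-associated and beta-defensin families, called silent families here. The members' median thus lay 0.49 above that of all genes and at that of the machinery genes, and it came to 0.0058 with the machinery median subtracted, when 28 members (50.9%) stayed above 0, against 23.7% of all genes. That scaling moved the median of all genes to -0.48, and subtracting the silent-family median moved it to 0.29. At 1.5-fold, 20 members were higher, against 18.1% of all genes, and 1 was lower, against 4.65%. At 3-fold, 1 member was higher, against 0.365%, and 0 were lower, against 0.370%.

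The spread lay mostly on the array without EPO. With EPO the 55 members ran from -0.23 to 0.37 with a standard deviation across genes of 0.130, and without EPO they ran from -1.56 to 0.57 with a standard deviation of 0.471. All genes showed the same inequality, with 0.128 with EPO and 0.429 without EPO. In 46 of the 55 members the value without EPO was the farther from the baseline, and so it was in 15184 of all 18377 genes. The count for the members is thus close to the share of all genes. Which arrays formed the baseline was not given in the sources used here, nor how. The baseline's part in this inequality was not tested.

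**Figure D1:**
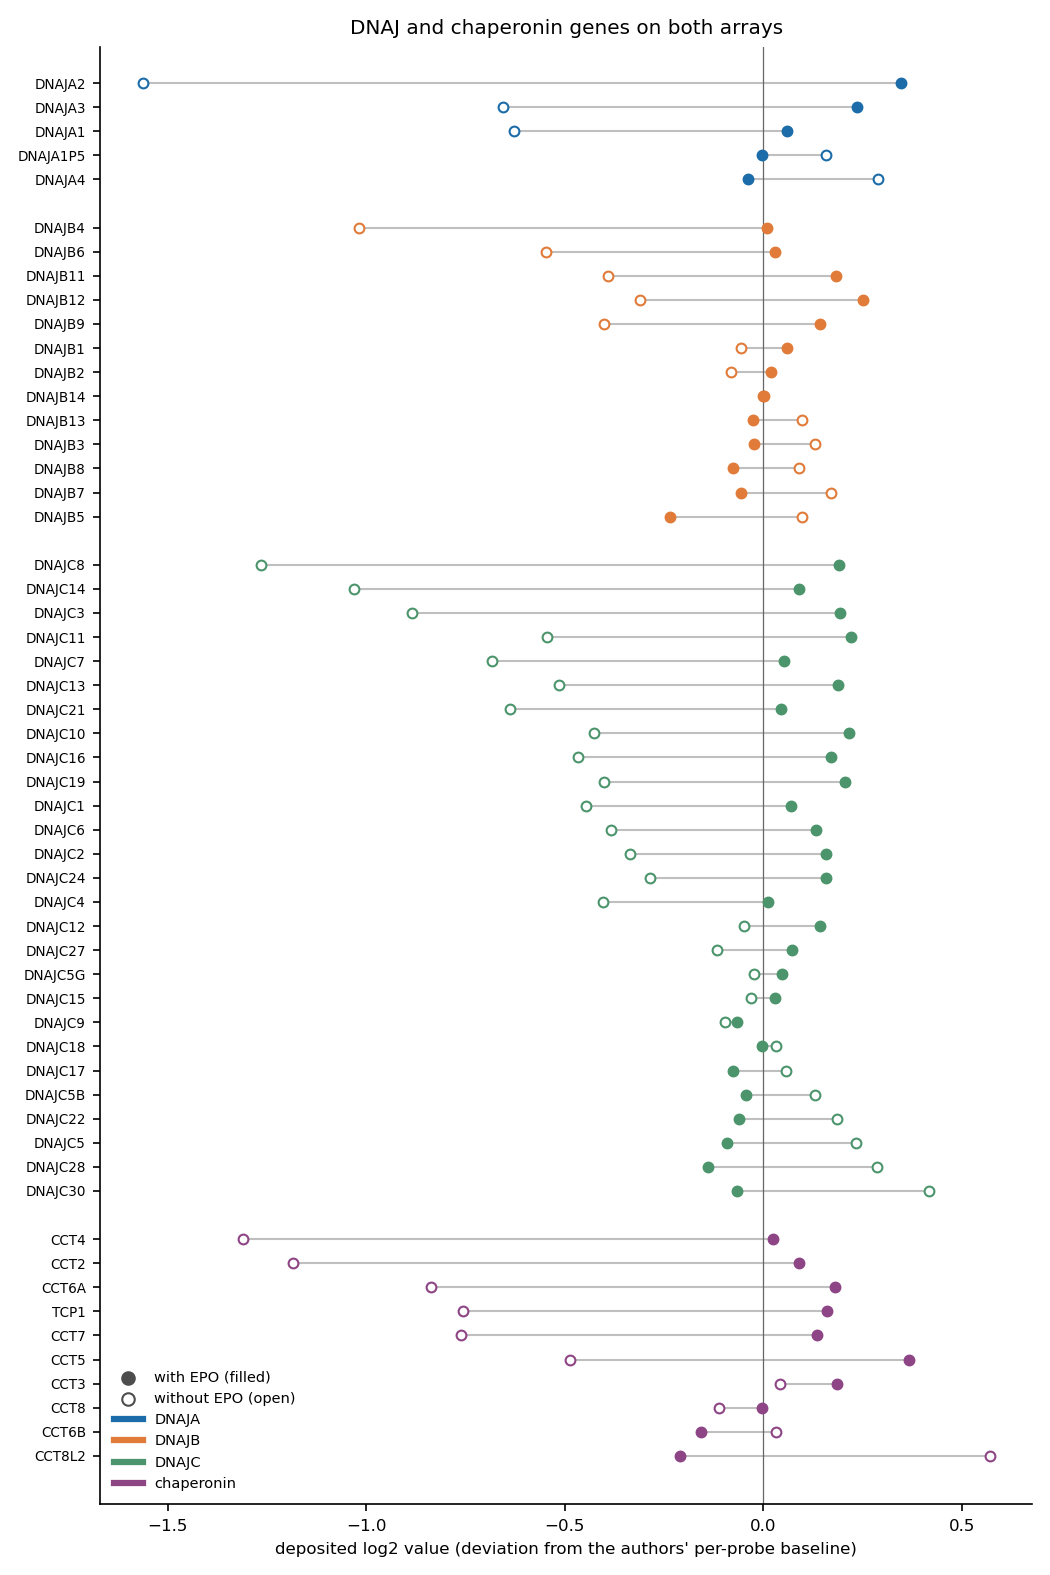
Deposited log2 value (horizontal axis, deviation from the authors' per-probe baseline) of each of the 55 genes with EPO (filled) and without EPO (open), 1 array each, coloured by group and sorted by difference. The filled points stay between -0.23 and 0.37, and the open points reach from -1.56 for DNAJA2 to 0.57 for CCT8L2.

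**Figure D2:**
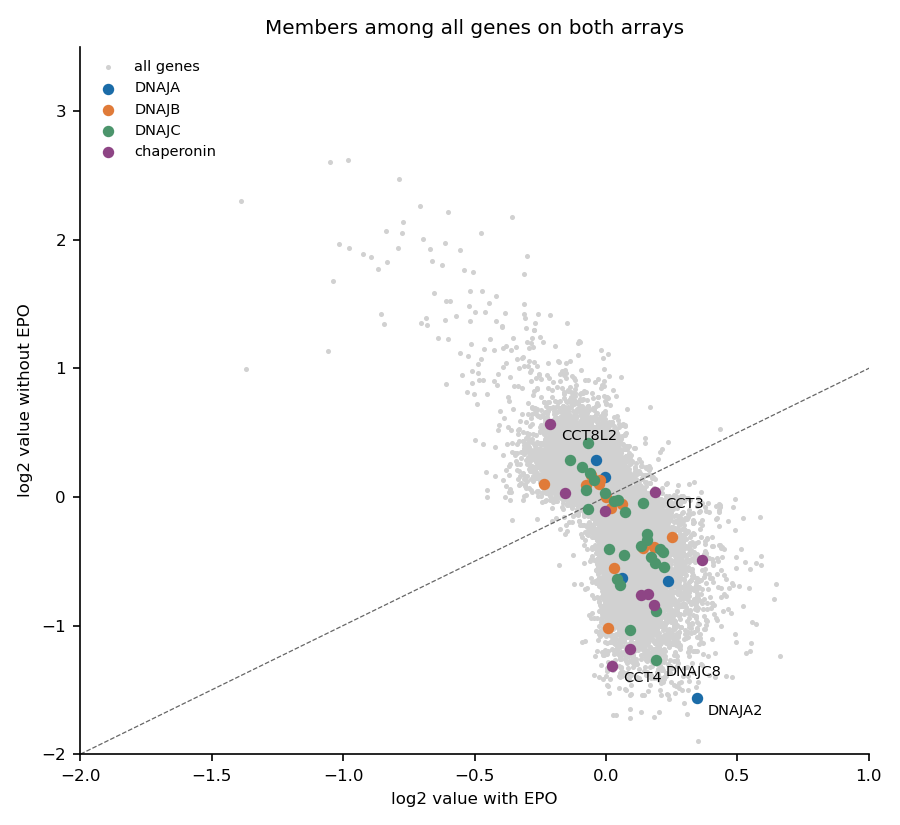
Log2 value with EPO (horizontal axis) against log2 value without EPO (vertical axis) for all 18377 genes (grey) and the members (coloured by group), with equal values on the dashed line. DNAJA2, DNAJC8 and CCT4 lie far below the line, CCT3 lies near it, and CCT8L2 lies above it.

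The subunits of the chaperonin ring had the highest median of the member lists. All 8 ring subunits had differences above 0, against 45.4% of all genes and 78.4% of the machinery genes. Their median was 0.91, although CCT3 and CCT8 turned negative (-0.29 and -0.33) with the machinery median subtracted. The other 6 lay between 0.85 and 1.34 and stayed positive under each scaling tried. CCT4 stood at 0.024 with EPO and -1.31 without EPO, a difference of 1.34 (2.52-fold). CCT2 stood at 0.090 with EPO and -1.18 without EPO, a difference of 1.28 (2.42-fold). CCT6A stood at 0.18 with EPO and -0.84 without EPO, a difference of 1.02 (2.03-fold). These 3 subunits were the ones past 2-fold (37.5% of the 8), against 6.19% of all genes. With the machinery median subtracted 0 of the 8 were, against 0.822% of all genes.

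TCP1, which encodes the alpha subunit, CCT7 and CCT5 came just under that line. TCP1 had 0.16 with EPO and -0.76 without EPO, and its difference was 0.92. CCT7 had 0.14 with EPO and -0.76 without EPO, and its difference was 0.90. CCT5 had 0.37 with EPO, the highest value of any member on that array, and -0.49 without EPO, and its difference was 0.85. CCT3 and CCT8 had smaller differences than the other 6, although their proteins sit in the same ring. Each subunit was read by 1 probe. For genes with several probes, the gap between probes of a gene had a 95th percentile of 1.16. The part of such gaps in this split was not tested. CCT3 had 0.19 with EPO and 0.042 without EPO, a difference of 0.14. CCT8 had -0.0024 with EPO and -0.11 without EPO, a difference of 0.11. Without EPO, all 6 of the first subunits lay at -0.49 or lower, whereas CCT3 and CCT8 lay between -0.11 and 0.042.

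The remaining pair of the chaperonin group is not part of the usual ring. CCT6B, a testis relative of CCT6A, had -0.16 with EPO and 0.031 without EPO, a difference of -0.19. CCT8L2, a testis gene related to CCT8, had -0.21 with EPO and 0.57 without EPO, and its difference of -0.78 (1.72-fold lower) was the lowest of all 55 members. With these genes included, the group of 10 had a median of 0.88 and a mean of 0.56.

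The DNAJA group held the highest difference among the members. DNAJA2, a cytosolic HSP70 partner, stood at 0.35 with EPO and -1.56 without EPO. The difference of 1.91 (3.76-fold) ranked 3 among all 18377 genes. DNAJA3, the mitochondrial type A protein, stood at 0.24 with EPO and -0.66 without EPO, a difference of 0.89. DNAJA1, like DNAJA2 a cytosolic HSP70 partner, stood at 0.060 with EPO and -0.63 without EPO, a difference of 0.69. These 3 genes were below the baseline without EPO and above it with EPO.

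DNAJA4, also a cytosolic HSP70 partner, went the other way, at -0.038 with EPO and 0.29 without EPO, a difference of -0.33. The symbol rule also takes DNAJA1P5, a pseudogene of DNAJA1, which stood at -0.0035 with EPO and 0.16 without EPO, a difference of -0.16. Near-identical copies may share probes, so the identity of such signals is uncertain. The group's median over the 5 genes was 0.69.

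Promoters were read for heat shock element letters, because heat shock factor is a known regulator of several HSP70 partners. The letters searched were GAANNTTC, which reads the same on both strands, and the longer GAANNTTCNNGAA on both strands, which contains the first. The window ran from 250 bases before to 50 after the gene start in RefSeq (GRCh38.p14), and 48 of the 55 members had one or more windows. The shorter letters were found in 8 of the 48 members (16.7%), against 8.21% of all genes with a window, and the longer in 2 (4.17%), against 0.608%. All genes with a window are here 27305 genes, whether or not the arrays measured them. By single windows, the shorter letters stood in 6.77% and the longer in 0.490% of 35116. The 8 members were CCT2, TCP1, DNAJA1, DNAJA4, DNAJB1, DNAJB6, DNAJB7 and DNAJC6, with differences from -0.33 to 1.28 and a median of 0.55, against 0.46 for the 40 members with a window and no match. DNAJA2 and DNAJA1 are shown whole, as the relatives with the first and the third highest difference in their group. Capitals mark matches, and each sequence is written 5′ to 3′ on the strand of its gene. The DNAJA2 window lies at chr16:46973625-46973924 (minus strand) and holds no match, which says only that these letters are not in it. The DNAJA1 window lies at chr9:33025023-33025322 (plus strand) and holds the shorter letters near its 5′ end and the longer ones just after the gene start.
DNAJA2: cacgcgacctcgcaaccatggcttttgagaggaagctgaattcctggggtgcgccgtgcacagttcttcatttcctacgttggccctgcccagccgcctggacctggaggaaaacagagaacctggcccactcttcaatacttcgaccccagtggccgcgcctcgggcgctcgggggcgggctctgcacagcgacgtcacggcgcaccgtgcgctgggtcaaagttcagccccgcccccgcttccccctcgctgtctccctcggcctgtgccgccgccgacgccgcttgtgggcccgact
DNAJA1: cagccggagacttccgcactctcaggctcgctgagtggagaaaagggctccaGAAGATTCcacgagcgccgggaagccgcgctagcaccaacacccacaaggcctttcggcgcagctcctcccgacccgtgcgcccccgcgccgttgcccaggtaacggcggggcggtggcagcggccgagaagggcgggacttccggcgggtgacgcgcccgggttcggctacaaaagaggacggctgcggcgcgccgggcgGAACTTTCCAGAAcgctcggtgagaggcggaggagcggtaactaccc

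For 5 further members a match is shown with up to 16 bases on each side, because these genes carry like letters while their differences range from positive to negative. The number of matches is not the same. The windows shown of DNAJB1 and DNAJA4 hold 2 matches of the shorter letters, and those of CCT2, TCP1 and DNAJB6 hold 1. DNAJB1 has a further match in another window. The stretches lie at chr12:69585784-69585823 (plus strand) for CCT2, chr6:159789810-159789849 (minus strand) for TCP1, chr7:157336857-157336901 (plus strand) for DNAJB6, chr19:14518421-14518460 (minus strand) for DNAJB1 and chr15:78264494-78264533 (plus strand) for DNAJA4. Their differences were 1.28 for CCT2, 0.92 for TCP1, 0.58 for DNAJB6, 0.12 for DNAJB1 and -0.33 for DNAJA4.
CCT2: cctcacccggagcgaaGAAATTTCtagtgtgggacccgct
TCP1: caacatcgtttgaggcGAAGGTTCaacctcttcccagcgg
DNAJB6: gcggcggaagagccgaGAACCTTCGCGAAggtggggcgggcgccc
DNAJB1: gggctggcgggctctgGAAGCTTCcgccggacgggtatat
DNAJA4: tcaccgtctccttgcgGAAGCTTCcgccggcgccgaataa

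The DNAJB group had the lowest median of the 4 groups, 0.10, which turned to -0.34 with the machinery median subtracted. DNAJB4, a cytosolic relative of DNAJB1, was the 1 of its 13 members past 2-fold (7.69%, against 6.19% of all genes). It stood at 0.0079 with EPO and -1.02 without EPO, a difference of 1.03 (2.04-fold). DNAJB6, which keeps aggregation-prone proteins soluble, stood at 0.030 with EPO and -0.55 without EPO, a difference of 0.58. DNAJB11, a helper of the HSP70 of the endoplasmic reticulum, stood at 0.18 with EPO and -0.39 without EPO, a difference of 0.57. DNAJB12, a membrane protein of the same organelle, stood at 0.25 with EPO and -0.31 without EPO, a difference of 0.56. DNAJB9, which acts in the lumen there, followed at 0.54.

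DNAJB1, the best known heat-inducible partner of HSP70, had nearly the same value on both arrays. It stood at 0.060 with EPO and -0.057 without EPO, a difference of 0.12. DNAJB2, which also binds ubiquitin, stood at 0.10. DNAJB14, a membrane protein related to DNAJB12, had equal and opposite values of -0.00061 with EPO and 0.00061 without EPO, and its difference was -0.0012. A further probe, shared with a locus of another name and left out here, stood at 0.34.

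The 4 members of the group listed as mainly of testis or other restricted tissues, DNAJB13, DNAJB3, DNAJB8 and DNAJB7, lay between -0.23 and -0.12. RefSeq lists DNAJB3 as a transcribed pseudogene. DNAJB7 had -0.057 with EPO and 0.17 without EPO. DNAJB8 had -0.077 with EPO and 0.090 without EPO. The lowest of the group was DNAJB5, a cytosolic relative of DNAJB1, with -0.23 with EPO and 0.098 without EPO, a difference of -0.33. Without the 4 restricted genes the median of the DNAJB group was 0.54 over 9 genes.

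**Figure D3:**
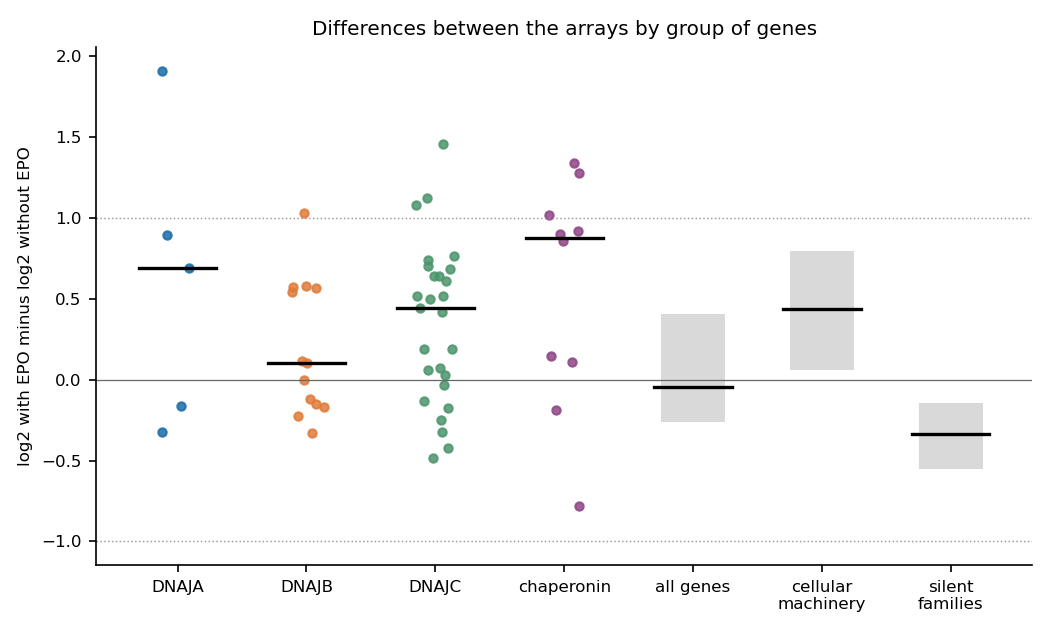
Difference between the arrays (vertical axis, log2 with EPO minus log2 without EPO) for each gene of the 4 groups (points) with the group median (black line), beside the median and the middle 50% (grey bar) of all genes, machinery genes and silent families. Dotted lines mark 2-fold; 8 members lie above the upper line, and none lies below the lower line, whose nearest member is CCT8L2 at -0.78.

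The DNAJC group, the largest, had a median of 0.44. Of its 27 members, 3 (11.1%) were past 2-fold upwards, against 6.19% of all genes and 15.3% of the machinery genes. Differences above 0 were found in 20 (74.1%), against 45.4% of all genes and 78.4% of the machinery genes. DNAJC8, which is associated with the spliceosome, stood at 0.19 with EPO and -1.27 without EPO, a difference of 1.46 (2.74-fold). DNAJC14, a membrane protein of the endoplasmic reticulum, stood at 0.091 with EPO and -1.03 without EPO, a difference of 1.12 (2.18-fold). DNAJC3, the lumenal co-chaperone also known as an inhibitor of eIF2alpha kinases, stood at 0.19 with EPO and -0.89 without EPO, a difference of 1.08 (2.11-fold). DNAJC11, a protein of the mitochondrial membrane organising complexes, was next at 0.77, with 0.22 with EPO and -0.54 without EPO.

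At the other end lay a pair of mitochondrial proteins. DNAJC30, which serves complex I of the respiratory chain, had -0.067 with EPO and 0.42 without EPO, a difference of -0.48 (1.40-fold lower). DNAJC28 had -0.14 with EPO and 0.29 without EPO, a difference of -0.43. DNAJC5, the cysteine string protein of secretory vesicles, had -0.091 with EPO and 0.23 without EPO, a difference of -0.33. DNAJC22 had -0.062 with EPO and 0.19 without EPO, a difference of -0.25. All 4 lay above the baseline without EPO and below it with EPO, the reverse of DNAJC8, DNAJC14 and DNAJC3.

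By place of work, the endoplasmic reticulum list had 11 measured members with a median of 0.56. Of these, 2 (18.2%) were past 2-fold upwards, against 6.19% of all genes and 15.3% of the machinery genes. Another count, of differences above 0, gave 8 (72.7%), against 45.4% of all genes and 78.4% of the machinery genes. Besides DNAJC14 and DNAJC3, the disulfide reductase DNAJC10 stood at 0.64, DNAJC16 at 0.64 and the ribosome-binding DNAJC1 at 0.52. DNAJC18 stood at -0.035. The 7 mitochondrial members had a median of 0.42 (-0.022 with the machinery median subtracted), with 0 past 2-fold, and spanned -0.48 for DNAJC30 to 0.89 for DNAJA3. DNAJC19, which belongs to the import motor of the inner membrane, stood at 0.61, DNAJC4 at 0.42 and DNAJC15 at 0.061. The value of DNAJC19 averages its probes, 1 of which may not report that gene, as described below.

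The 6 members of the nucleus, ribosome and tRNA list had a median of 0.47. Besides DNAJC8 they include DNAJC21, a factor of the large ribosomal subunit, at 0.68, and the ribosome-associated DNAJC2 at 0.50. The others are DNAJC24 of the diphthamide pathway at 0.44, the histone chaperone DNAJC9 at 0.029 and DNAJC17 at -0.13. The only probe of DNAJC9 may not report that gene, as described below. The 4 vesicle and endosome members had a median of 0.35, or -0.086 with the machinery median subtracted. Of these, the endosomal DNAJC13 stood at 0.70, the clathrin-uncoating auxilin DNAJC6 at 0.52 and DNAJC27 at 0.19, beside DNAJC5. The 9 cytosolic HSP70 partners had a median of 0.58 and include DNAJC7, which binds both HSP70 and HSP90, at 0.74. The 9 members listed for restricted tissues had a median of -0.17, with 7 below 0, against 54.6% of all genes. This median lay between those of all genes and of the silent families, and it turned to 0.17 with the silent-family median subtracted. The highest of them was DNAJC12, a helper of aromatic amino acid hydroxylases, at 0.19, and the relatives of DNAJC5 among them, DNAJC5G and DNAJC5B, stood at 0.071 and -0.17.

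**Figure D4:**
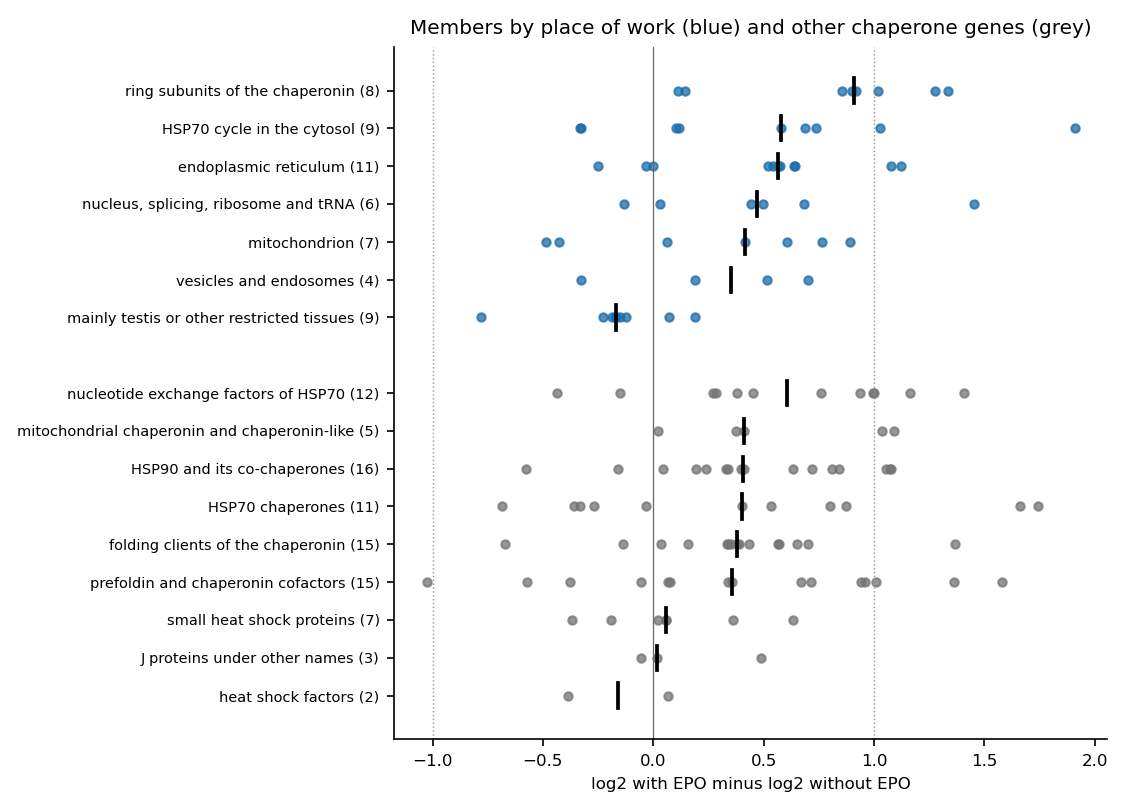
Difference between the arrays (horizontal axis, log2 with EPO minus log2 without EPO) for members by place of work (blue) and for other genes of the chaperone network (grey), with the median of each list as a black line and the number of measured genes in brackets. The ring subunits have the highest median, 0.91, and the list of restricted tissues has the lowest among the member lists, -0.17.

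For a pair of members a probe may not report the named gene. Each probe was set beside the 20 named probes nearest in probe number, and for 98.8% of 19279 named probes the commonest chromosome among these was that of the probe's own gene. For 53 members this held for every probe. The only probe of DNAJC9, a gene of chromosome 10, had 19 of 20 neighbours on chromosome 20 and 0 on its own. DNAJC19, a gene of chromosome 3, had a probe among genes of chromosome 14 (20 of 20 neighbours), with a difference of 0.44, and another among genes of its own chromosome, with a difference of 0.77. DNAJC19 was the 1 member with several probes. The gap of its probes, 0.33, compares with a median of 0.18 over the 685 genes with several probes. The 95th percentile of that gap was 1.16, so a single probe can differ from another of its gene by more than 2-fold.

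Other genes of the chaperone network also had mostly positive differences. Of 11 genes listed as HSP70 chaperones, however, 5 lay below 0, as did 1 of 2 heat shock factors. Above 0 lay 45.4% of all genes and 78.4% of the machinery genes. At least 2-fold higher were 6.19% of all genes and 15.3% of the machinery genes, and 0.898% of all genes were at least 2-fold lower. With the machinery median subtracted, the median of the nucleotide exchange factors stayed positive, at 0.17, and the medians of the other network lists lay between -0.60 and -0.027. Of 12 genes listed as nucleotide exchange factors of HSP70, 3 (25%) were past 2-fold upwards and 10 (83.3%) above 0. Their median was 0.60. The mitochondrial GRPEL2 stood at 1.41, HSPA4 at 1.17 and BAG2 at 1.00, and SIL1 was the lowest at -0.44. Of 15 prefoldin subunits, phosducin-like regulators and tubulin cofactors, 3 (20%) were at least 2-fold higher and 1 (6.67%) at least 2-fold lower. TXNDC9 and PDCL, phosducin-family regulators of the chaperonin, stood at 1.58 and 1.36, the tubulin cofactor TBCE at 1.01 and its relative in function TBCA at -1.03. The median of that list was 0.36.

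Folding clients of the chaperonin, 15 genes, had a median of 0.38. Of these, 13 (86.7%) were above 0, against 45.4% of all genes and 78.4% of the machinery genes. STRAP, a protein with WD repeats, was the 1 past 2-fold (6.67%, against 6.19% of all genes), at 1.37. The actin genes ACTB and ACTG1 stood at 0.34 and 0.036, and the tubulin gene TUBB2A was the lowest at -0.67. HSPD1, the mitochondrial chaperonin, stood at 1.03, its partner HSPE1 at 0.37 and the chaperonin-like BBS10 at 1.09, among 5 genes with a median of 0.41. HSP90 and its co-chaperones (16 measured) had a median of 0.40. Of them 3 (18.8%) were past 2-fold, CHORDC1 at 1.08, PPID at 1.07 and FKBP4 at 1.05, and CDC37 was the lowest at -0.58. The 11 measured genes listed as HSP70 chaperones had a median of 0.40 and 2 (18.2%) past 2-fold, HSPA4L at 1.74 and HSPA13 at 1.66. HSPA4L is a close relative of the exchange factor HSPA4, so it could as well stand in the list of exchange factors. Of the listed HSP70 chaperones 5 lay below 0, with HSPA2 the lowest at -0.69. Small heat shock proteins (7 measured) had a median of 0.056 and 0 past 2-fold, with HSPB1 the highest at 0.63 and HSPB6 the lowest at -0.37. The 3 measured J proteins with other names, SEC63, HSCB and GAK, stood at 0.49, -0.057 and 0.019, and the heat shock factors HSF1 and HSF4 at 0.065 and -0.39.

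Markers of other cell types were read on the same scale. Of 9 measured, 7 lay below 0, against 54.6% of all genes, and the median of the 9 was -0.14. EPCAM at 1.25 and LYZ at 1.05 were the 2 at least 2-fold higher with EPO (22.2%), against 6.19% of all genes. With the machinery median subtracted neither was past 2-fold, and with the silent-family median subtracted the list's median turned to 0.20. The 7 measured K562 markers had a median of 0.25, with TFRC, the transferrin receptor, at 1.02. Their median turned to -0.19 with the machinery median subtracted. On values without a level these differences do not show whether a marker was expressed, and their part in the members' differences was not tested.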

How the data were processed

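Total RNA of 2 K562 cultures was hybridised to 1 Affymetrix Gene 1.0 ST array each, per the labels' protocols. The authors deposited 28869 probes with values read as log2. How the background was corrected and the values summarised and normalized, and the logarithm base, were not given in the sources used here. Both arrays had equal and opposite values within 1e-05 in 631 probes (2.19%), as a centring per probe can give. No intensities were analysed, so no filter on dim probes was possible.

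Probes were named through the platform annotation: 19310 had exactly 1 symbol, 1752 several and 7807 none listed. Entrez IDs tied 19279 of the probes with 1 symbol to RefSeq (GRCh38.p14) symbols, and probes of a gene were averaged to 18377 genes. Members were chosen by platform symbol, from 56 probes. Members, lists and reference classes were chosen with earlier results of these data known. Named genes were all members, and from the partner lists those past 2-fold or with the largest differences. ACTB, ACTG1, HSPE1, HSF1, HSF4 and the J proteins with other names were added for their roles. SIL1, TUBB2A, CDC37 and HSPA2 were added as the lowest of their lists. Scalings, probe rules, symbol rules and thresholds of 1.5-fold and 3-fold were tried. The gene averaging was run on simulated data without noise between the arrays, which checks the code only and says nothing about error on real arrays. The software was pandas 2.3.3 and NumPy 2.4.6 under Python 3.11.15.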

Additional observations from a re-analysis of the deposited data

How the results depend on the processing

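No paired analysis was possible because each group had 1 array, and for the same reason no array could be left out. A median was counted as moved when it shifted by more than 0.18, the median gap between probes of a gene. A count was taken as moved when it changed by more than 1.5-fold, or to or from 0. With the machinery median (0.44) subtracted, the medians were 0.25 for DNAJA, -0.34 for DNAJB, which turned its sign, 0.0058 for DNAJC and 0.44 for the chaperonin group, and 2 members (DNAJA2 and DNAJC8) were at least 2-fold higher and 1 (CCT8L2) at least 2-fold lower, against 0.822% and 5.20% of all genes under that scaling. With the silent-family median (-0.33) subtracted, they were 1.02, 0.43, 0.78 and 1.21, in the same order, and 17 members (30.9%) were higher, against 15.3% of all genes. By its mean the chaperonin group stood at 0.56. At 1.5-fold, 20 members were higher and 1 lower, against 18.1% and 4.65% of all genes, and at 3-fold 1 was higher, against 0.365%. Leaving out members of restricted tissues, an alternative chosen after seeing the data, gave 0.54 for DNAJB. Of 68 recalculated values, 52 stayed within these limits. This includes all with the all-gene median subtracted, other probe rules, updated symbols, protein-coding symbols only, shared probes added, or DNAJC9 and DNAJC19 left out. Many of these could hardly have moved. Only 1 member has several probes, and updated symbols gave every member the same difference. The all-gene median, -0.047, is smaller in size than the limit of 0.18. The tally of 52 is therefore no measure of robustness.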
